A study of Mus musculus with 12 samples.

Results

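The genes described here carry interferon signals from the cell surface to the nucleus. They are the 4 receptor chains Ifnar1, Ifnar2, Ifngr1 and Ifngr2, the signal transducer Stat2, and the interferon regulatory factors Irf1, Irf3, Irf7 and Irf9. These 9 genes were taken by name out of 18193 genes measured on the arrays, with earlier results of these data known. Where several probe sets named a gene and no other gene, the one with the highest mean of all 12 arrays was used, and the remaining ones are given as well. The cells were MC38, a line derived from a mouse colon carcinoma, cultured as a monolayer without other cell types. Cultures received GDC-0623, an inhibitor of the kinase MEK, at 100 nM, or the same dilution of its solvent DMSO. RNA was taken after 24 h and after 72 h, which gave 4 groups of 3 biological replicates: 24 h GDC-0623, 24 h DMSO, 72 h GDC-0623 and 72 h DMSO. Both treatments were thus compared in 1 cell line at 1 dose, and no untreated or interferon-treated culture was part of these samples.

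Type I interferons bind a receptor made of IFNAR1 and IFNAR2, and interferon-gamma binds one made of IFNGR1 and IFNGR2. Kinases of the JAK family on these chains phosphorylate STAT proteins. STAT2 joins with another STAT protein and IRF9 in a complex that binds the interferon-stimulated response element (ISRE) in target promoters, whereas interferon-gamma mainly drives a STAT dimer that binds the gamma-activated site (GAS). IRF3 is made constitutively and is activated by phosphorylation when nucleic acids are sensed. IRF7 is itself an interferon target and amplifies the production of type I interferons, and IRF1 is an early target of interferon-gamma and an activator of antigen presentation genes.

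The promoter letters of the members whose transcripts changed most, and of those holding an ISRE core or a GAS, were read from RefSeq sequences on the GRCm38.p6 build. The window ran from 250 bases before to 50 bases after each start, in the direction of the gene. The ISRE core was searched as GAAANNGAAA, which reads TTTCNNTTTC on the other strand, and the GAS as TTCNNNGAA, which reads the same on both strands. The ISRE core was present in 1 of 11 windows of the 9 members, against 3.44% of 32851 promoters of the same length, and the GAS was present in 3 of 11 windows, against 8.3% of the promoters. The stretches below each hold 100 bases, and capitals mark the GAS in Irf1 (chr11:53769884-53769983, + strand) and Ifnar2 (chr16:91372533-91372632, + strand) and the ISRE core in Stat2 (chr10:128270248-128270347, + strand). Irf7 (chr7:141266425-141266524, - strand) and Irf9 (chr14:55603885-55603984, + strand) are shown up to the base before the start and hold neither string in the window searched. The start used for Irf7 lay inside its gene coordinates, which end at chr7:141266499, so most of the stretch shown for Irf7 is within the gene.
Stat2: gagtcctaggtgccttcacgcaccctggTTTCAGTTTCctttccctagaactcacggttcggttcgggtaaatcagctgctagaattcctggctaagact
Irf1: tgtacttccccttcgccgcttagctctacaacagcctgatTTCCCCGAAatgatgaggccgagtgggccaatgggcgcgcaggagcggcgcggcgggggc
Ifnar2: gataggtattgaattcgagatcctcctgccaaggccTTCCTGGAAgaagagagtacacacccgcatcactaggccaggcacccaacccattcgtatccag
Irf7: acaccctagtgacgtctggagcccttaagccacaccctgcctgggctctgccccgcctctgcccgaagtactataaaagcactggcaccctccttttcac
Irf9: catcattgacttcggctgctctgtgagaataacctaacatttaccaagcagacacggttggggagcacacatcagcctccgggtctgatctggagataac

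The match began 222 bases before the start in Stat2, 90 bases before it in Irf1 and 214 bases before it in Ifnar2. The third GAS lay in Ifnar1, 5 bases before the start, and ran across it. The start used for Ifnar1 lay inside its gene coordinates, which begin at chr16:91485032, and so did this GAS. A match of these letters is a description of the sequence and was not read as a bound site.

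The deposited values are log2 expression values from robust multichip averaging (RMA), so a difference of 1 is a doubling. Array medians lay between 4.63 and 4.7, and values of about 3 to 5 are in the background range. Along the first principal component, which held 58.6% of the variance, replicate 1 of 72 h GDC-0623 (77.4) stood beyond replicates 2 and 3 (44.8 and 49.8). The 72 h drug effects of members and the differences of effects are therefore also given without it where they were called. Values of other genes, list counts and correlations are given with it only. Markers were checked against the label of a colon carcinoma. All 8 epithelial markers averaged below 6 in every group, with list means of 3.84 to 4.03 per array. Of 8 leukocyte markers, 7 averaged below 6 in every group, Cd14 being the exception, and all 4 endothelial markers averaged below 5. Of 5 fibroblast markers, 3 (Pdgfra, Col1a2 and Dcn) were above 6. The fibroblast list mean per array was 7.12 to 7.22 with GDC-0623 and 6.72 to 6.86 with DMSO at 24 h, and 8.05 to 8.22 with GDC-0623 and 7.06 to 7.16 with DMSO at 72 h. It thus moved with the drug and with time, as did several members below, and its part in those results was not tested. The 7 ERK output genes, which report activity of the pathway that MEK drives, all fell with GDC-0623 at both times, with a median log2 fold change of -2.04 at 24 h and -1.49 at 72 h.

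GDC-0623 raised 5 of the 9 members at 24 h, namely Ifngr2, Stat2, Irf1, Irf7 and Irf9. At 72 h it raised 8, all but Irf3, and none was called lower at either time. Calls are at an adjusted p below 0.05 in limma, with Benjamini-Hochberg adjustment over 45037 probe sets. Of all 18193 genes, 13.3% were called higher and 8.23% lower at 24 h, and 13.8% higher and 12.4% lower at 72 h. The median log2 fold change of the members was 0.42 at 24 h and 0.57 at 72 h, against -0.03 over all genes at both times. In bulk RNA, more cells with a transcript and more transcript per cell cannot be told apart. The changes fell into 3 sizes: Stat2, Irf7 and Irf9 moved by several fold at 72 h, Irf1 by nearly 1 log2 unit, and the receptor chains by 0.32 to 0.57. Every GDC-0623 array lay above every DMSO array for 8 of the 9 members at 24 h and again at 72 h, an order found in 21.2% and 21.3% of all genes.

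**Figure D1:**
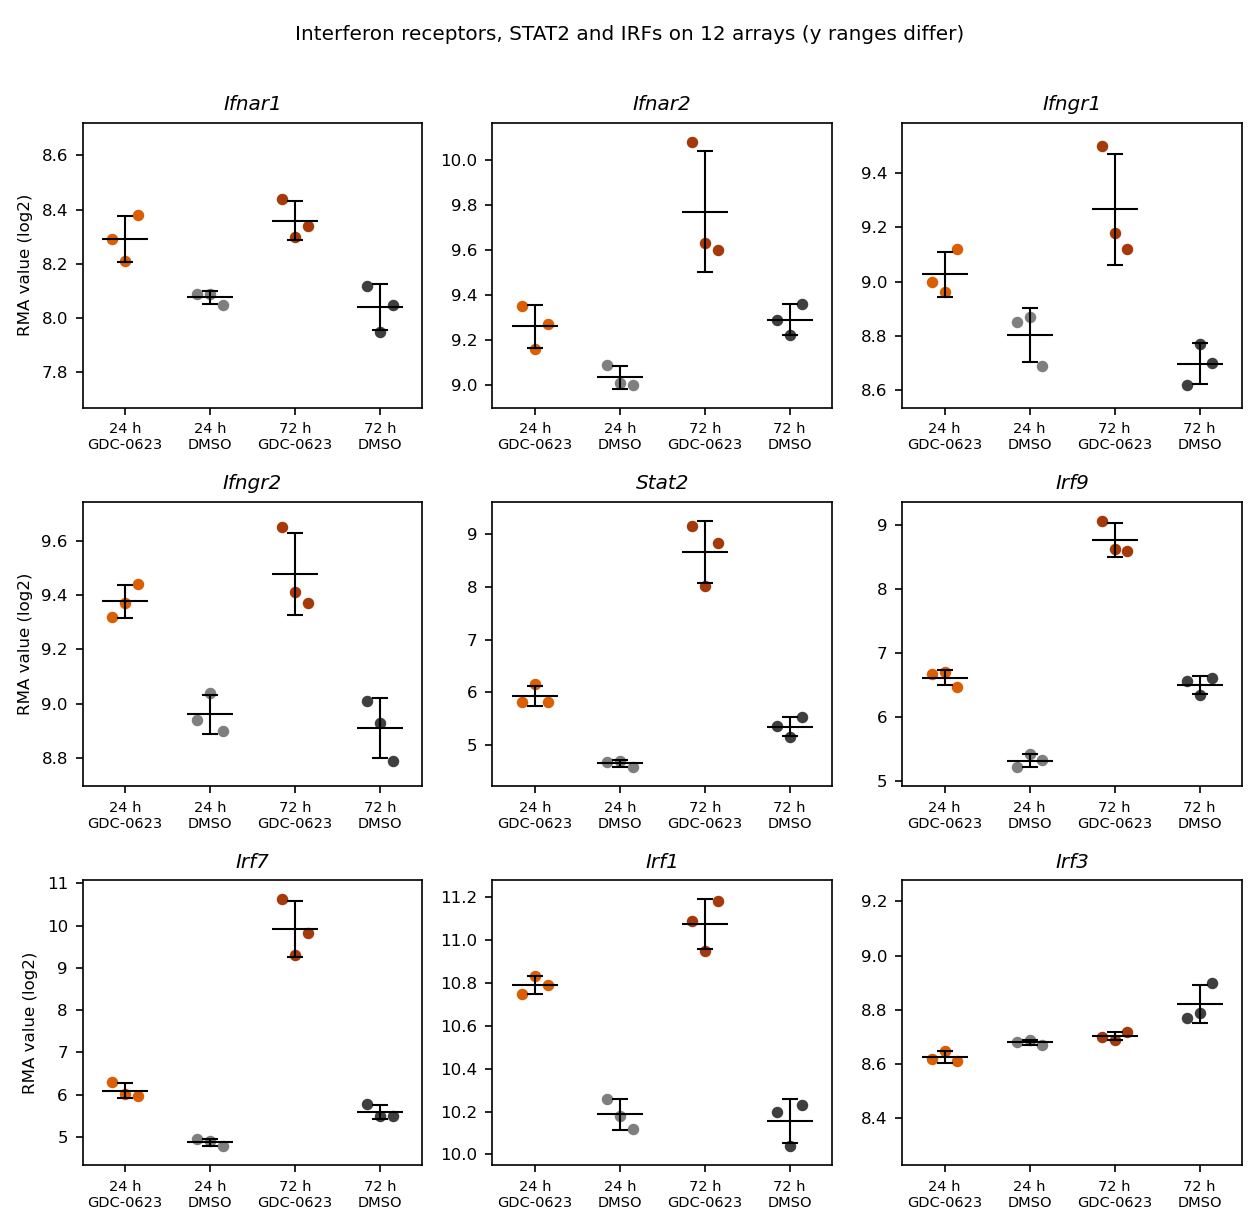
RMA values (log2, y axis, with a range of its own in each panel) of the 9 members on 12 arrays, 3 per group (x axis). Points are arrays in the order of replicates 1, 2 and 3, and bars are the mean ± SD. The GDC-0623 arrays lie above the DMSO arrays of the same time in every panel but Irf3, and Stat2, Irf7 and Irf9 at 72 h stand apart from the other groups.

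Among the type I receptor chains, Ifnar1, which binds the kinase TYK2, read 8.29, 8.21 and 8.38 with GDC-0623 and 8.09, 8.09 and 8.05 with DMSO at 24 h. At 72 h it read 8.44, 8.30 and 8.34 with GDC-0623 and 8.12, 7.95 and 8.05 with DMSO. The groups did not overlap at either time, but the distance was small. The log2 fold change was 0.22 ± 0.071 (SE, n = 3 per group, limma adjusted p = 0.0682) at 24 h and 0.32 ± 0.082 (limma adjusted p = 0.0230) at 72 h. The 72 h call of Ifnar1 was lost without 72 h GDC-0623 replicate 1 (0.28, limma adjusted p = 0.0592), without 72 h DMSO replicate 2 (0.28, limma adjusted p = 0.0935) and without 72 h DMSO replicate 3 (0.33, limma adjusted p = 0.0657).

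Ifnar2 encodes the chain that binds JAK1 and STAT2 and is the tighter-binding part of the type I receptor. It read 9.35, 9.16 and 9.27 with GDC-0623 and 9.09, 9.01 and 9.0 with DMSO at 24 h, a log2 fold change of 0.23 ± 0.074 (limma adjusted p = 0.0695). At 72 h it read 10.08, 9.63 and 9.60 with GDC-0623 and 9.29, 9.22 and 9.36 with DMSO. Replicate 1 of 72 h GDC-0623 was the highest of the 12 arrays, and even the lowest GDC-0623 array was above the DMSO arrays. The 72 h log2 fold change was 0.48 ± 0.127 (limma adjusted p = 0.0269), and it was 0.33 (limma adjusted p = 0.0294) without that replicate. The call was lost on omission of any 1 array of 72 h DMSO (limma adjusted p = 0.0794, 0.0983 and 0.0561 without replicates 1, 2 and 3).

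Ifngr1, the ligand-binding chain of the interferon-gamma receptor, read 9.0, 8.96 and 9.12 with GDC-0623 and 8.85, 8.87 and 8.69 with DMSO at 24 h. At 72 h it read 9.50, 9.18 and 9.12 with GDC-0623 and 8.62, 8.77 and 8.70 with DMSO. The groups did not overlap, and the highest GDC-0623 array was again replicate 1 at 72 h. The log2 fold change was 0.22 ± 0.079 (limma adjusted p = 0.0902) at 24 h and 0.57 ± 0.109 (limma adjusted p = 0.00585) at 72 h, or 0.45 (limma adjusted p = 0.00848) without that array.

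Ifngr2, the second chain of that receptor, which is often limiting for interferon-gamma responses, was the one receptor gene called at 24 h. Its values were 9.32, 9.37 and 9.44 with GDC-0623 and 8.94, 9.04 and 8.90 with DMSO at 24 h, and 9.65, 9.41 and 9.37 with GDC-0623 and 9.01, 8.93 and 8.79 with DMSO at 72 h. The arrays of the 2 treatments were separated at both times by about the same distance. The log2 fold change was 0.42 ± 0.072 (1.33-fold, limma adjusted p = 0.00380) at 24 h and 0.57 ± 0.100 (1.48-fold, limma adjusted p = 0.00408) at 72 h, or 0.48 without 72 h GDC-0623 replicate 1.

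Ifnar2, Ifnar1 and Ifngr2 lie within 191225 bases of chromosome 16 (chr16:91372783-91564007, GRCm38.p6), together with Il10rb, the shared chain of the interleukin-10 and interferon-lambda receptors. Il10rb rose by 0.62 ± 0.088 (limma adjusted p = 0.00130) at 24 h and 0.66 ± 0.106 (limma adjusted p = 0.00249) at 72 h. At 72 h all 4 neighbouring receptor genes were thus called higher, against 13.8% of all genes. Ifnar1, Ifnar2 and Ifngr2 were chosen with earlier results of these data known, and their neighbours were added after the values were seen. This count is therefore a description and no independent test against that share. The calls of Ifnar1 and Ifnar2 were lost on omission of single arrays, as given above. Of 8 measured protein-coding genes within 100 kb of this stretch, receptor genes included, no other was called higher at 72 h. Son (0.25, limma adjusted p = 0.0892) and Tmem50b (0.18, limma adjusted p = 0.223) had positive values without a call. So did Dnajc28 (0.23, limma adjusted p = 0.0746), whose means were in the background range. At 24 h, Il10rb and Ifngr2 were called, and so was Tmem50b, a neighbour that is no receptor gene (0.23, limma adjusted p = 0.0442), but not Ifnar1 or Ifnar2. Gart, a purine synthesis enzyme gene next to the stretch, was called lower at both times. Its log2 fold change was -0.66 at 24 h (limma adjusted p = 0.00194) and -0.90 at 72 h (limma adjusted p = 0.00112). Ifngr1 lies on chromosome 10 (chr10:19591949-19610229).

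Stat2, the subunit that brings the transactivation domain to the type I complex, was at the edge of the background range in DMSO. At 24 h it read 5.82, 6.15 and 5.82 with GDC-0623 and 4.68, 4.70 and 4.58 with DMSO. At 72 h it read 9.15, 8.01 and 8.84 with GDC-0623 and 5.36, 5.16 and 5.53 with DMSO. The groups were far apart at both times, and the 72 h GDC-0623 arrays spread over more than 1 log2 unit, with replicate 2 the lowest. Stat2 was 2.42-fold higher at 24 h (log2 fold change 1.28 ± 0.098, limma adjusted p = 4.75e-05) and 9.96-fold higher at 72 h (3.32 ± 0.247, limma adjusted p = 4.87e-05). Without 72 h GDC-0623 replicate 1 the 72 h log2 fold change was 3.08. Since 24 h DMSO values of 4.58 to 4.70 lie in the background range, the size of the 24 h fold hangs on the background. The 72 h DMSO arrays of Stat2 were just above that range, so the size of its 72 h fold may hang on it as well.

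Irf9 encodes the DNA-binding subunit of the same complex. Its values at 24 h were 6.66, 6.70 and 6.47 with GDC-0623 and 5.21, 5.41 and 5.32 with DMSO, and at 72 h they were 9.06, 8.62 and 8.59 with GDC-0623 and 6.55, 6.34 and 6.61 with DMSO. All GDC-0623 arrays were above the DMSO arrays of their time, and the 24 h DMSO arrays were just above the background range, so the 24 h fold may hang on it as well. Irf9 was 2.46-fold higher at 24 h (log2 fold change 1.30 ± 0.086, limma adjusted p = 2.16e-05) and 4.78-fold higher at 72 h (2.26 ± 0.134, limma adjusted p = 1.88e-05), with 2.11 on the log2 scale at 72 h when GDC-0623 replicate 1 was left out.

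Irf7, the amplifier of type I interferon production, had the largest change of the 9 members at 72 h. It read 6.31, 6.01 and 5.98 with GDC-0623 and 4.95, 4.90 and 4.79 with DMSO at 24 h, the DMSO arrays being in the background range. At 72 h it read 10.62, 9.30 and 9.83 with GDC-0623 and 5.79, 5.49 and 5.49 with DMSO. Replicate 1 of 72 h GDC-0623 was the highest and replicate 2 the lowest of their group, and both were more than 3 log2 units above any DMSO array. The fold was 2.33 at 24 h (log2 fold change 1.22 ± 0.098, limma adjusted p = 5.97e-05) and 20.1 at 72 h (4.33 ± 0.272, limma adjusted p = 2.12e-05). Without 72 h GDC-0623 replicate 1 the 72 h log2 fold change was 3.98. The size of the 24 h fold hangs on the background. The 72 h DMSO arrays of Irf7 were just above the background range, so the size of its 72 h fold may hang on it too. By size of the 72 h rise among 18193 genes, Irf7 ranked 11, Stat2 ranked 45 and Irf9 ranked 126.

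Irf1, the activator of antigen presentation genes, was well above background in every group. It read 10.75, 10.83 and 10.79 with GDC-0623 and 10.26, 10.18 and 10.12 with DMSO at 24 h, and 11.09, 10.95 and 11.18 with GDC-0623 and 10.20, 10.04 and 10.23 with DMSO at 72 h. The groups were separate and the spread within them was small. The rise was 1.52-fold at 24 h (log2 fold change 0.60 ± 0.069, limma adjusted p = 4.44e-04) and 1.89-fold at 72 h (0.92 ± 0.092, limma adjusted p = 2.21e-04), and it was 0.91 on the log2 scale at 72 h without GDC-0623 replicate 1.

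Irf3, the constitutive factor, was the exception. Its arrays read 8.62, 8.65 and 8.61 with GDC-0623 and 8.68, 8.69 and 8.67 with DMSO at 24 h, and 8.70, 8.69 and 8.72 with GDC-0623 and 8.77, 8.79 and 8.90 with DMSO at 72 h. The GDC-0623 arrays were below the DMSO arrays at both times, yet by little, and the share of all genes with this order was not counted. The log2 fold change was -0.05 ± 0.063 (limma adjusted p = 0.633) at 24 h and -0.12 ± 0.075 (limma adjusted p = 0.343) at 72 h, and neither passed the test. The sign at 24 h turned to 0.10 when arrays were scaled by their hybridization controls. Irf3 and Irf7, both inducers of type I interferon genes, thus gave values of -0.12 and 4.33 in the same 72 h comparison.

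**Figure D2:**
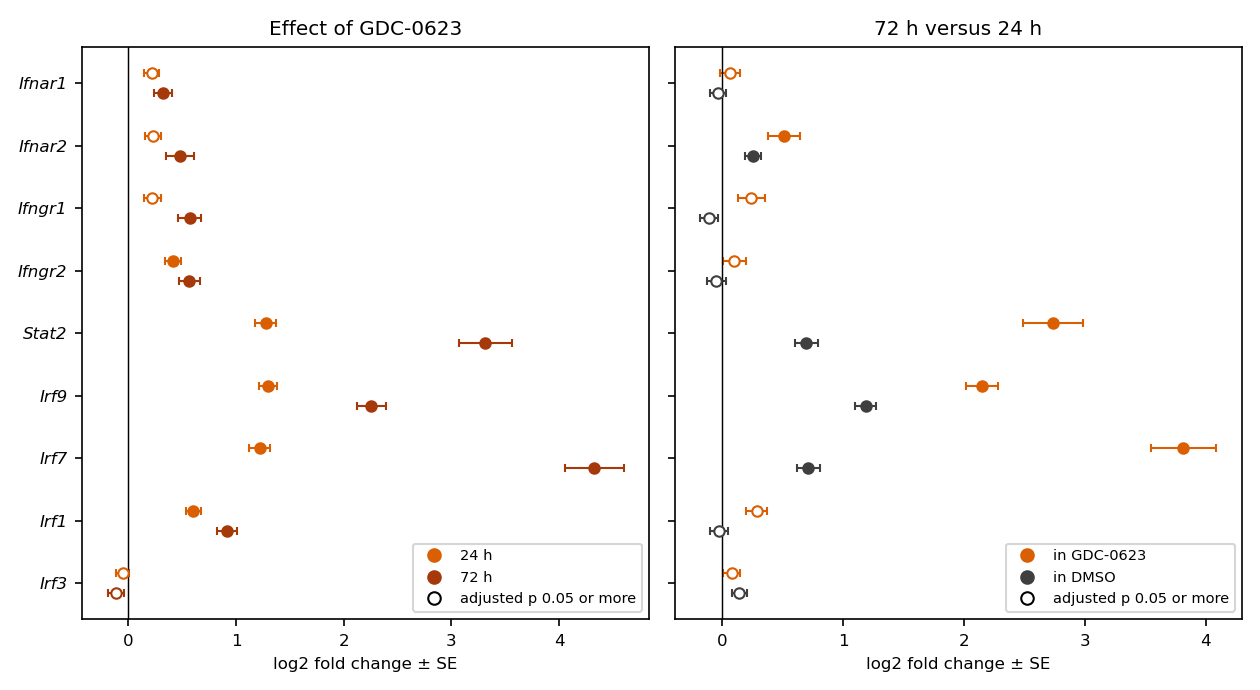
Log2 fold changes ± SE (x axes) of the 9 members (y axis). The left panel shows GDC-0623 over DMSO at 24 h and 72 h, and the right panel shows 72 h over 24 h in GDC-0623 and in DMSO. Filled points have a limma adjusted p below 0.05. Stat2, Irf9 and Irf7 have the widest gap between both times, and the receptor chains and Irf3 stay within 0.6 of zero in every comparison.

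The effect of the drug grew with time for 3 members. In the contrast of the effects at 72 h and 24 h over all 12 arrays, the difference on the log2 scale was 3.11 ± 0.328 for Irf7 (limma adjusted p = 2.57e-04), 2.04 ± 0.300 for Stat2 (limma adjusted p = 0.00233) and 0.96 ± 0.171 for Irf9 (limma adjusted p = 0.00856). Such a positive difference was called for 1.62% of all genes. Without 72 h GDC-0623 replicate 1 the differences were 2.76, 1.798 and 0.81, and each was still called. For Irf1 the difference was 0.31 (limma adjusted p = 0.200), and for the receptor chains it was 0.10 for Ifnar1, 0.25 for Ifnar2, 0.35 for Ifngr1 and 0.15 for Ifngr2, with limma adjusted p between 0.261 and 0.714. None of these, nor Irf3 with -0.06, passed the test.

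The same 3 genes also rose with time in culture without the drug. The time comparisons share arrays with the drug comparisons and are not independent of them. In DMSO, 4 of 9 members were called higher at 72 h than at 24 h, against 8.41% of all genes. Irf9 was 2.28-fold higher at 72 h (log2 fold change 1.19 ± 0.089, limma adjusted p = 2.29e-04), Irf7 1.64-fold (0.71 ± 0.095, limma adjusted p = 0.00318) and Stat2 1.62-fold (0.70 ± 0.097, limma adjusted p = 0.00372), and the 72 h DMSO arrays were above the 24 h DMSO arrays for all 3, an order found in 17.2% of all genes. Ifnar2 was higher by 0.26 (limma adjusted p = 0.0418), a call lost when any 1 of the 6 arrays was left out. It rested on 1 of the 3 Ifnar2 probe sets, since 1427691_a_at gave 0.09 (limma adjusted p = 0.645) and 1440169_x_at gave -0.17 (limma adjusted p = 0.283), and their mean gave 0.06 (limma adjusted p = 0.539). When all 12 arrays entered 1 fit, Irf9 alone of the members kept its call, with limma adjusted p = 0.0556 for Stat2 and 0.0743 for Irf7. The remaining members had values between -0.11 (Ifngr1) and 0.14 (Irf3) and did not pass the test.

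In GDC-0623, 4 of 9 members were called higher at 72 h than at 24 h, against 5.79% of all genes. Irf7 was 14.1-fold higher (log2 fold change 3.82 ± 0.271, limma adjusted p = 8.43e-05), Stat2 6.67-fold (2.74 ± 0.246, limma adjusted p = 2.72e-04) and Irf9 4.43-fold (2.15 ± 0.131, limma adjusted p = 4.59e-05). With any 1 array left out, the lowest log2 fold changes were 3.465 for Irf7, 2.495 for Stat2 and 1.995 for Irf9. Ifnar2 was higher by 0.51 ± 0.130 (limma adjusted p = 0.0454), a call lost in 5 of the 6 fits that left out 1 array. Here too the other Ifnar2 probe sets were not called, with 0.11 for 1427691_a_at (limma adjusted p = 0.541) and -0.0033 for 1440169_x_at (limma adjusted p = 0.987), and the mean of the 3 gave 0.21 (limma adjusted p = 0.154). Irf1 was higher by 0.28 (limma adjusted p = 0.0782), with all 72 h arrays above all 24 h arrays, as in 14.1% of all genes. Ifngr1, Ifngr2, Ifnar1 and Irf3 had values of 0.24, 0.10, 0.07 and 0.08 and did not pass the test.

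The order of the 4 conditions followed from these changes. Stat2 and Irf7 were lowest in 24 h DMSO, then 72 h DMSO, then 24 h GDC-0623, and highest in 72 h GDC-0623, with no overlap between neighbours in that order. How many of all genes share this order was not counted. For Irf9 the middle conditions overlapped: 24 h GDC-0623 spanned 6.47 to 6.70 and 72 h DMSO spanned 6.34 to 6.61. For Irf1, Ifngr1, Ifngr2 and Ifnar1 the DMSO groups of both times overlapped each other. The GDC-0623 groups of both times also overlapped, or touched at 9.12 for Ifngr1, except for Irf1. For Ifnar2, 24 h GDC-0623 (9.16 to 9.35) overlapped 72 h DMSO (9.22 to 9.36), with 24 h DMSO below both and 72 h GDC-0623 above both. Irf3 was lowest in 24 h GDC-0623, and its whole range over the 12 arrays was 8.61 to 8.90.

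In the drug comparisons, no other probe set of the receptor chains or of Stat2 had a value in the opposite direction. The 9 genes had 17 probe sets, and Ifngr1, Irf1, Irf7 and Irf9 had 1 each. The second Stat2 probe set (1421911_at) rose by 1.27 (limma adjusted p = 4.61e-05) at 24 h and by 3.13 (limma adjusted p = 1.60e-04) at 72 h, with a difference of 1.86 (limma adjusted p = 0.0125), close to the first. The second Ifngr2 probe set (1423558_at) gave 0.36 (limma adjusted p = 0.0645) and 0.48 (limma adjusted p = 0.00539). Of the other Ifnar2 probe sets, 1440169_x_at gave 0.23 (limma adjusted p = 0.179) and 0.40 (limma adjusted p = 0.0195), and 1427691_a_at gave 0.17 (limma adjusted p = 0.317) and 0.20 (limma adjusted p = 0.173). Ifnar2 is known to yield membrane-bound and soluble forms, and the annotation used does not say which form each probe set reads. The second Ifnar1 probe set (1442222_at) averaged 3.62, in the background range, and showed 0.00 and 0.02. Of 4 Irf3 probe sets, 1416898_a_at gave -0.02 and -0.15 and 1435271_at gave -0.07 and 0.04, none of them called. The fourth was called at 24 h: 1438721_a_at fell by 0.28 on the log2 scale at 24 h (limma adjusted p = 0.0325), with group means of 4.70 with GDC-0623 and 4.98 with DMSO in the background range.

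**Figure D3:**
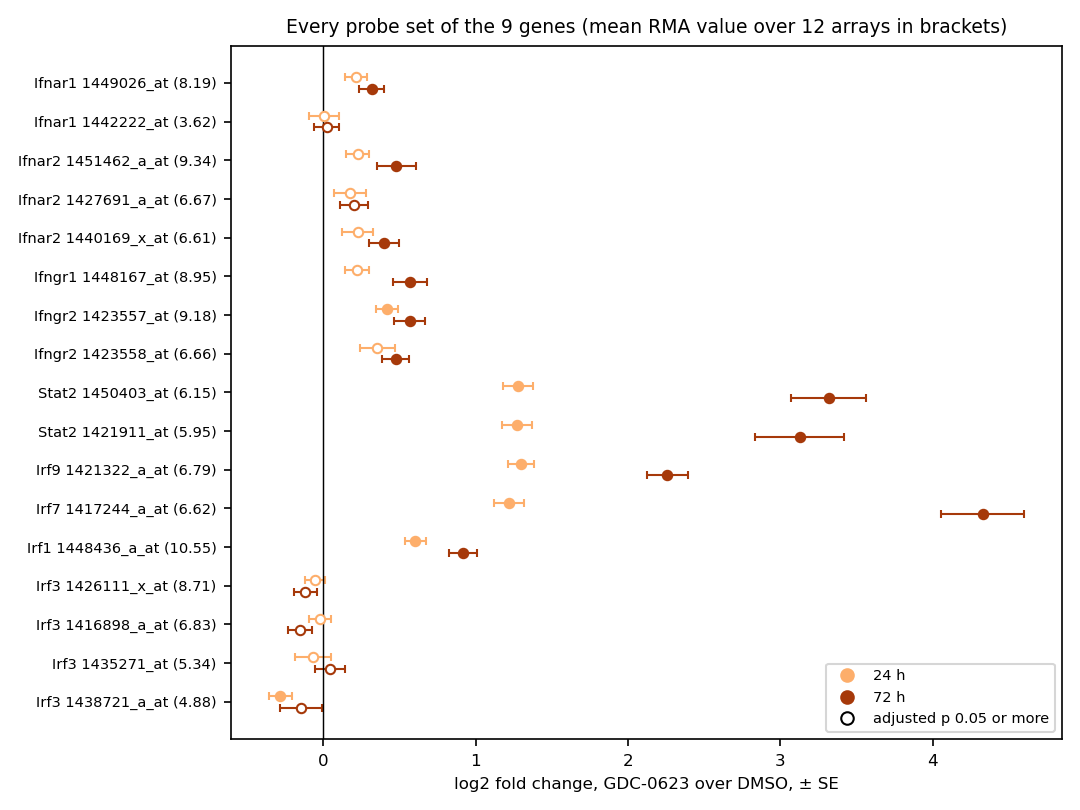
Log2 fold change of GDC-0623 over DMSO ± SE (x axis) for all 17 probe sets of the 9 members (y axis), with the mean over 12 arrays in brackets. Filled points have a limma adjusted p below 0.05. Both Stat2 probe sets lie at 1.28 and 1.27 at 24 h and at 3.32 and 3.13 at 72 h.

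None of 8 measured interferon genes (Ifnb1, Ifng and 6 Ifna genes) was called in either drug comparison, with group means of 2.79 to 5.41 and no array above 5.55. Most of these means were in the background range, and the highest, those of Ifna9 (5.32 to 5.41), were just above it. Of the receptor kinases, Jak1, which serves both receptors, rose by 0.43 ± 0.064 (limma adjusted p = 0.00171) at 24 h and 0.45 ± 0.101 (limma adjusted p = 0.0130) at 72 h. Tyk2, the partner of IFNAR1, rose by 0.49 ± 0.067 (limma adjusted p = 0.00119) at 24 h and had 0.28 (limma adjusted p = 0.0878) at 72 h. Jak2, which serves IFNGR2, and Jak3 were not called at either time.

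Of 5 other STAT genes, 3 rose at both times. Stat3, best known for signals of the interleukin-6 family, had the largest change of these, with 0.97 ± 0.092 at 24 h and 1.49 ± 0.167 at 72 h. Stat5a rose by 0.72 and 0.83, and Stat6, the interleukin-4 transducer, by 0.38 and 0.58. Stat5b was not called. Stat4 fell by 0.33 on the log2 scale at 24 h (limma adjusted p = 0.0188) within the background range (3.38 with GDC-0623 and 3.71 with DMSO). Of 4 other IRF genes, none was called at 24 h. At 72 h, Irf2, which competes with IRF1 for its sites, rose by 0.55 ± 0.112 (limma adjusted p = 0.00810), and Irf5 fell by 0.29 on the log2 scale (limma adjusted p = 0.0493). Irf4 and Irf8, known from immune cells, were not called and averaged below 5.2 in every group. Of 5 other class II cytokine receptor chains, Il10rb alone was called.

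Of 14 negative regulators of the pathway, 2 rose and 2 fell at 24 h, and 4 rose and 2 fell at 72 h. Over all genes, 13.3% rose and 8.23% fell at 24 h and 13.8% rose and 12.4% fell at 72 h, and the counts of 2 in 14 are not far from these shares. Usp18, which is induced by interferon and blocks signalling at IFNAR2, rose by 1.88 ± 0.264 (limma adjusted p = 0.00129) at 24 h and by 4.11 ± 0.255 at 72 h. Its 24 h DMSO mean of 5.04 was at the edge of the background range, so the size of its 24 h rise may hang on the background. Socs1, an inhibitor of JAK kinases, fell by 0.47 on the log2 scale at 24 h (limma adjusted p = 0.00136) and rose by 0.40 at 72 h (limma adjusted p = 0.00831), and the difference between its effects was 0.87 (limma adjusted p = 4.22e-04). The group means of Socs1 were 6.16 with GDC-0623 and 6.63 with DMSO at 24 h, and 6.67 with GDC-0623 and 6.27 with DMSO at 72 h. Of the PIAS family, which binds STATs, Pias3 rose by 0.93 at 24 h and 0.76 at 72 h and Pias1 by 0.56 at 72 h. Pias2 fell by 0.41 on the log2 scale at 24 h and by 0.39 at 72 h, and Pias4 was not called at either time. Of 8 proteins that activate IRF3 and IRF7 after nucleic acid or Toll-like receptor sensing, 2 genes rose and 1 fell at 24 h, and 4 rose and 1 fell at 72 h. Ikbke, a kinase of both factors, rose by 0.84 at 72 h and, with means below 6, by 0.59 at 24 h. Ticam1, a Toll-like receptor adaptor, rose by 0.54 at 24 h and 0.58 at 72 h, and at 72 h Sting1, the adaptor of DNA sensing, rose by 0.82 and the kinase Tbk1 by 0.41. Mavs fell by 0.26 on the log2 scale at 24 h and Irak1 by 0.31 at 72 h.

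**Figure D4:**
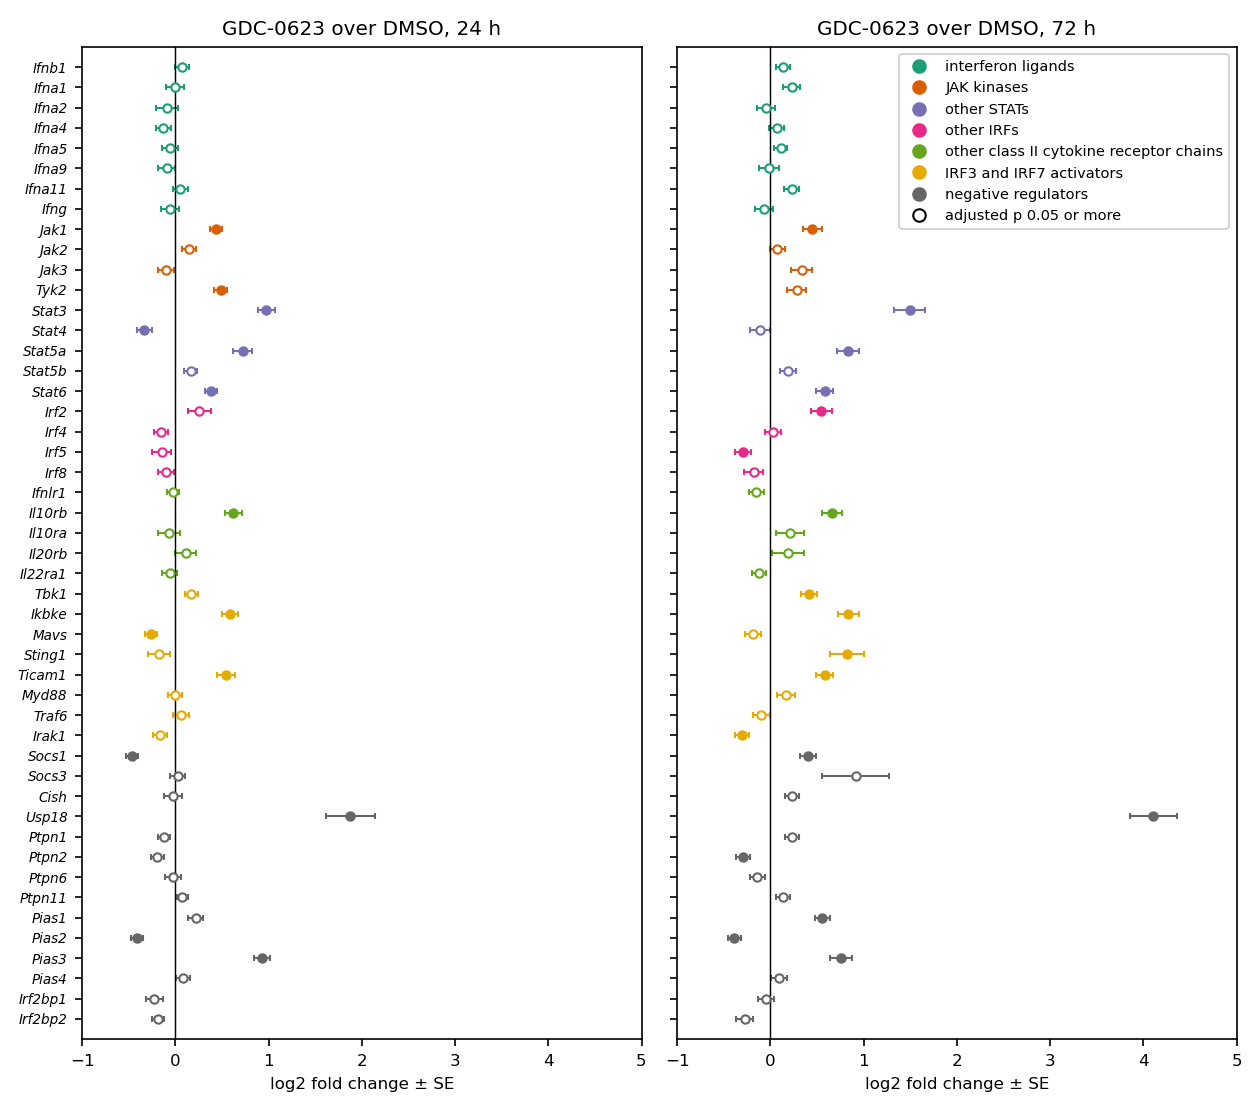
Log2 fold change of GDC-0623 over DMSO ± SE (x axes) at 24 h (left) and 72 h (right) for measured genes around the members (y axis), coloured by list. Filled points have a limma adjusted p below 0.05. Usp18 has the largest change, 1.88 at 24 h and 4.11 at 72 h, and none of the 8 ligands is filled.

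Targets downstream of the members were counted in the same comparisons, in which 13.3% of all genes were called higher at 24 h and 13.8% at 72 h. The target lists were chosen with earlier results of these data known. Of 14 type I interferon targets, 9 were called higher at 24 h and 14 at 72 h, with median log2 fold changes of 1.06 and 2.81. Of 12 interferon-gamma targets, 9 were called higher at 24 h and 11 at 72 h, with medians of 0.79 and 1.93. Ciita was the 1 not called at 72 h, and its group means of 3.85 to 3.95 were in the background range. The lists do not tell which interferon signal, if any, moved their genes, and this was not tested. At 72 h the rises included those of Ifit3 (4.69) in the first list and of the GTPase genes Gbp3 (3.96) and Irgm2 (3.75) in the second. Ifi27l2a had 5.34, but its 72 h DMSO mean of 3.68 was in the background range, so the size of its rise hangs on the background. No gene of either list was called lower.

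The genes whose values followed the members most closely were found by Pearson's r over the 12 arrays, among 9484 genes reaching a mean of 6 in at least 1 group. These arrays share the drug and time contrasts, so r is a description of the pattern only. The closest genes were Iigp1 (0.999), Tlr3 (0.997) and Bst2 (0.996) for Irf7. They were Gm20559 (0.996), Tlr3 (0.993) and Bst2 (0.993) for Stat2, and Trim34a (0.993), Npc2 (0.992) and Rtp4 (0.991) for Irf9. For Irf1 they were Nfkbie (0.985), Psmb10 (0.983) and Ackr3 (0.982). The receptor chains had other neighbours: Plcg1 (0.979), Mgrn1 (0.964) and Exoc4 (0.963) for Ifnar1, Litaf (0.983), Ctsd (0.981) and Ctsa (0.980) for Ifnar2, Fam120aos (0.977), Ankfy1 (0.976) and Ext1 (0.970) for Ifngr1, and Elf1 (0.987), Gpr39 (0.977) and Zc2hc1a (0.976) for Ifngr2. Among the members, r was 0.991 between Irf7 and Stat2, 0.975 between Irf9 and Stat2 and 0.941 between Ifngr2 and Ifnar1, and it was 0.714 between Ifnar2 and Ifnar1. Ifnar2 had 0.792 with Ifngr1 and 0.693 with Ifngr2, but 0.935 with Irf9, 0.930 with Irf7 and 0.917 with Stat2. For the other receptor chains, r with Irf9, Irf7 and Stat2 ran from 0.725 (Ifnar1 and Irf9) to 0.8325 (Ifngr1 and Irf7).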

How the data were processed

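Total RNA (200 ng) of MC38 cells was amplified from the 3 prime end, labelled with biotin and hybridised to Affymetrix mouse GeneChip arrays. The authors deposited log2 values after robust multichip averaging, which corrects background, quantile normalises the arrays and summarises each probe set. RMA is also named in the submitters' processing notes, with a version not given in the sources used here. A shift shared by most genes is lost in the quantile step. RMA values carry no depth or detection call, and the number of arrays limits the precision.

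The table held 45101 probe sets. After 64 control probe sets were left out, 45037 were tested, of which 34945 had 1 symbol, 932 several and 9160 none. Gene identifiers of 34741 probe sets were matched in the RefSeq gene table. Groups were compared with limma 3.58.1 in R 4.3.3 (lmFit and eBayes, two-sided), on the 6 arrays concerned or, for the difference of effects, on all 12, and p-values were adjusted by Benjamini-Hochberg over the 45037 probe sets. The method was tested on simulated data.

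All 9 members were named. Of each list, up to 4 called genes with the largest change and a mean of at least 6 were named, besides every JAK, STAT and IRF gene, and for each member called at 72 h the 3 genes with the highest r. Members and lists were chosen with earlier results of these data known. The neighbours on chromosome 16, Stat4 levels, the 24 h value of Ikbke, the 72 h value of Pias2, Pias4, Irak1, Ifna9 levels and Ciita were added after their values were seen. Alternatives were 1 fit over 12 arrays, a block for the replicate number, removal of dim probe sets (those without a value of 5 on 3 or more arrays), a second quantile normalisation, array weights, a shift by 18 hybridization control probe sets, a trended and robust prior, averaging over a gene's probe sets and the omission of each array. Figures were drawn with matplotlib 3.10.9.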

Additional observations from a re-analysis of the deposited data

Results flagged for a closer look

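The effect of GDC-0623 differed between 72 h and 24 h for 3 members by a test of the difference itself over 12 arrays. The difference on the log2 scale was 3.11 for Irf7 (limma adjusted p = 2.57e-04), with effects of 4.33 at 72 h and 1.22 at 24 h. It was 2.04 for Stat2 (limma adjusted p = 0.00233), with effects of 3.32 at 72 h and 1.28 at 24 h, and 0.96 for Irf9 (limma adjusted p = 0.00856), with effects of 2.26 at 72 h and 1.30 at 24 h. All GDC-0623 arrays of these genes were above the DMSO arrays of their time. The 24 h DMSO means of Stat2 (4.65) and Irf7 (4.88) were in the background range, and the part of this in the difference was not tested. Leaving out any 1 array gave 2.76 to 3.42 for Irf7, 1.798 to 2.37 for Stat2 and 0.81 to 1.04 for Irf9.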

How the results depend on the processing

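The number of members called higher at 24 h was 5, and 8 with the filter on dim probe sets, with the shift by hybridization controls and with the trended and robust prior, Ifnar1, Ifnar2 and Ifngr1 being added in each. Each of those settings also called a larger share of all genes higher. The counts were 2877 of 11052 with the filter, 3407 of 18193 with the shift and 2894 of 18193 with the prior, against 2421 of 18193. Averaging over a gene's probe sets added Ifnar2 (0.21, limma adjusted p = 0.0324) and Ifngr1 (0.22, limma adjusted p = 0.04996) at 24 h. It did not add Ifnar1 (0.11, limma adjusted p = 0.222), and the share of all genes called with it was not counted. In DMSO, 4 members were called higher at 72 h and 1 when all 12 arrays entered 1 fit. The counts over all 18193 genes were 1530 and 1344. Leaving out 1 array gave 5 members at 24 h, 6 to 8 at 72 h, 3 for the difference of effects, 3 in DMSO over time and 3 to 4 in GDC-0623 over time. The same fits called 1836 to 2097 of 18193 genes higher at 24 h and 1795 to 2362 at 72 h. They called 193 to 367 higher for the difference, 939 to 1141 in DMSO over time and 502 to 955 in GDC-0623 over time. The shift by hybridization controls moved every value at 24 h by 0.15, the difference of effects by -0.14 and the time change in GDC-0623 by -0.11. With it 3407 genes were called higher and 416 lower at 24 h, against 2421 and 1497. For the difference it called 203 higher and 370 lower (295 and 266 without it), for DMSO over time 1308 and 314 (1530 and 935) and for GDC-0623 over time 811 and 1621 (1054 and 565). Signs turned under this shift only for values that did not pass the test: Irf3 at 24 h (0.10), Ifnar1 in the difference (-0.0359), Irf1 in DMSO over time (0.00296), and Ifnar1 (-0.0396), Ifngr2 (-0.0063) and Irf3 (-0.0296) in GDC-0623 over time. Irf3 in the difference was 0.0133 with the mean of its probe sets, a value that did not pass the test. In DMSO over time, omission of 1 array gave -0.0767 to 0.00833 for Ifnar1, -0.1 to 0.01 for Ifngr2 and -0.0667 to 0.0283 for Irf1, none of which passed the test. With the mean of its probe sets, Ifnar1 at 72 h was 0.17 (limma adjusted p = 0.0745). Of the single-gene values over the 5 comparisons, 321 under other settings and 303 with 1 array left out kept their direction and their side of the threshold, 14 passed it newly, and 9 and 17 lost their call. Folds of Stat2 and Irf7 that use 24 h DMSO are limited by signal close to background. Those that use 72 h DMSO, with arrays just above the background range, may be limited by it as well.

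Replicate numbers were shared by all groups. The deviations of same-numbered arrays had a positive r in every pair (0.0135 to 0.289), against -0.244 to 0.108 for arrays of different numbers. Not every array correlated best with its own number, and the labels do not say that the numbers pair the samples. The main fits therefore did not use the numbers, and whether they mark a shared batch was not tested. With the replicate number as a block, 5 members were called at 24 h, 8 at 72 h, 3 for the difference, 3 in DMSO over time (4 without the block, Ifnar2 being lost at limma adjusted p = 0.0670) and 4 in GDC-0623 over time. Of all 18193 genes, the block called 2259 higher at 24 h, 2446 at 72 h and 361 for the difference. It called 1388 higher in DMSO over time and 1278 in GDC-0623 over time.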
